A study of Mus with 8 samples.

Results

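The genes described here are 38 genes of calcium handling and ion transport, chosen by symbol: voltage-gated calcium channels and their auxiliary subunits, potassium channels, TRP and Piezo cation channels, the proteins of store-operated entry, the release channels, pumps and exchanger that move calcium, and 2 genes of the calcium-activated chloride conductance. The arrays held 90 probes for 37 of the 38 genes, out of 20289 genes with a probe, and Cacnb3 had no listed probe. They were measured in cultured vascular smooth muscle cells from the aorta of male C57 black 6 mice aged 8 weeks, at passage 1, grown in DMEM with fetal calf serum. All 8 cultures carried the floxed Tie2 gene, which is now named Tek. The 4 cultures termed WT were negative for the transgene SM22α Cre, and the 4 termed KO were positive for it. Cre driven by the SM22α promoter acts in smooth muscle cells, and other cells in such a culture need not lose the gene. Whether the cultures stem from separate animals is not stated in the labels, and the p-values therefore measure only the spread between these cultures, which may be technical.

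Arterial smooth muscle contracts when calcium rises in the cytosol. The calcium enters through voltage-gated, receptor-operated, store-operated and stretch-gated channels of the plasma membrane, or leaves the sarcoplasmic reticulum through inositol trisphosphate receptors and ryanodine receptors. Potassium channels hold the membrane potential and so limit entry, while calcium ATPases and the sodium-calcium exchanger remove the ion. Cells grown in serum are known to lose part of this contractile machinery and to rely more on store-operated entry and on the intermediate-conductance potassium channel encoded by Kcnn4.

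Total RNA was hybridised to Illumina bead arrays, 1 array per culture, and the values below are log2 intensities after background correction and quantile normalization. A probe counts as detected on an array where its deposited detection p-value was under 0.05, which held for 44.9% to 49.5% of all probes per array. The lowest detected values lay between 4.51 and 4.62 on this scale, so that a value in the low range of 4 is at background. The level of one probe is not set against that of another. The 4 WT cultures and the first 2 KO cultures shared slide 1, while KO replicates 3 and 4 were alone on slide 2.

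The deleted gene went with the labels. Tek stood at 6.44, 7.42, 6.66 and 6.35 in WT replicates 1 to 4 and at 4.78, 5.56, 5.36 and 5.26 in KO replicates 1 to 4, a log2 difference of -1.48 with a standard error of 0.27, and -0.61 in the authors' value table. With limma, the adjusted p of Tek was 0.81, and the sources do not place its probe inside or outside the deleted exons. The labelled cell type was met by most of its markers: 14 of 15 contractile smooth muscle genes and 7 of 9 genes of cultured smooth muscle were tested. Acta2, Myh11 and Tagln were detected on all 8 arrays. Cnn1 lay near background, detected on 1 WT and 3 KO arrays, and Synpo2 was not tested. Markers of other cells were present too. 14 of 15 macrophage and leukocyte genes were tested, and the log2 of their summed intensities was 12.53 to 15.85 in WT and 12.03 to 15.01 in KO. Such a sum is weighted to the brightest genes and is not set against that of another list. 10 of 14 endothelial genes were tested (11.18 to 11.89 in WT, 11.76 to 12.16 in KO), Vwf and Kdr not being among them. 10 of 10 genes of adventitial fibroblasts (14.46 to 15.56 in WT, 14.82 to 15.02 in KO), 6 of 6 of pericytes (10.49 to 11.00 and 10.31 to 10.96), 5 of 8 of Schwann and neural cells (11.10 to 12.33 and 11.26 to 12.31) and 5 of 6 of cycling cells (11.16 to 11.86 and 11.22 to 12.01) were tested. Of cardiac muscle, 3 of 10 were tested (6.20 to 7.12 and 6.15 to 7.01), Myh6, Tnni3 and Nppa not among them, of skeletal muscle 2 of 8 (6.07 to 9.67 and 7.75 to 8.96) and of adipocytes 0 of 5. Some listed genes had no probe. Those with a probe were 7 for cultured smooth muscle, 6 for Schwann and neural cells, 5 for cycling cells, 9 for cardiac muscle and 4 for adipocytes. In these bulk cultures fewer cells of a type and less RNA per cell cannot be told apart.

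Detection divided the 38 genes. For 15 of them a probe was detected on all 8 arrays, for 9 on 4 to 7, for 9 on 1 to 3 and for 4 on none. The share detected on all 8 arrays was 40.5% of the 37 genes with a probe and 46.1% of all genes with one. The genes detected throughout were those of store-operated entry (Orai1, Stim1, Stim2), the cation channels Trpc1, Trpc6, Trpv2 and Piezo1, the inositol trisphosphate receptors Itpr2 and Itpr3, the pumps Atp2a2, Atp2b1 and Atp2b4, the exchanger Slc8a1, the calcium channel auxiliary subunit Cacna2d1 and the potassium channel Kcnn4. 14 of these 15 also exceeded, on every array, the 95th percentile of 937 probes that have no annotation and are numbered like controls, the exception being Atp2b4, which did so on 3 arrays. Among all 20289 genes with a probe, 8391 exceeded that percentile on every array, against these 14 of 37. Since 14.4% of those control-like probes were themselves called detected, a gene detected on a few arrays can be at background.

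**Figure D1:**
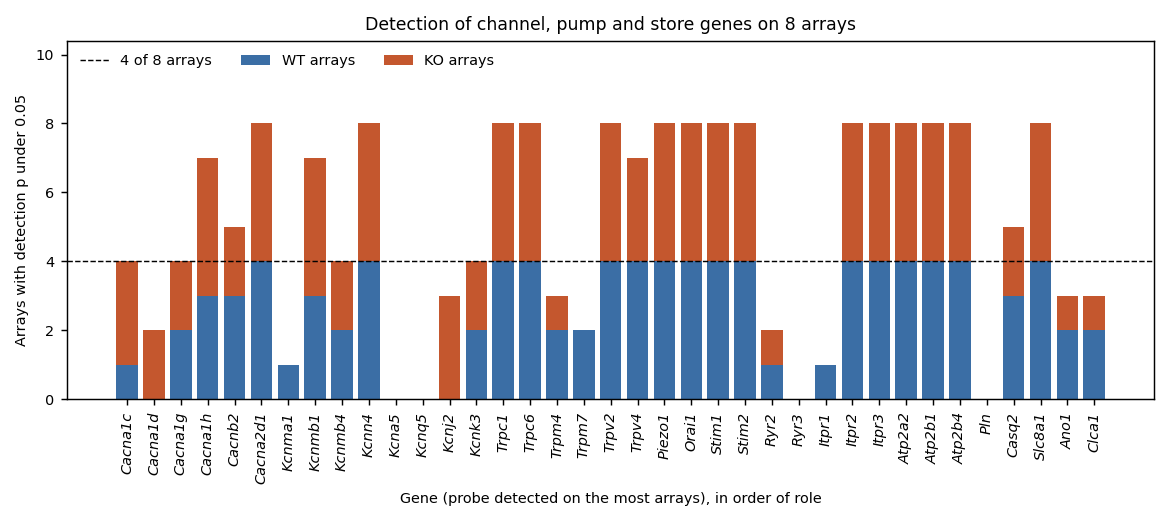
Number of arrays with a detection p-value under 0.05 for each of 37 genes, through the probe of the gene detected on the most arrays. Bars stack the WT arrays (blue) and the KO arrays (orange), and the dashed line marks 4 of 8 arrays. The genes of store-operated entry, Itpr2, Itpr3 and 3 pumps reach 8, while Kcna5, Kcnq5, Ryr3 and Pln stay at 0.

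The genes at or near background included several that are textbook components of arterial smooth muscle. Kcnma1, the pore of the large-conductance calcium-activated potassium channel, was detected in WT replicate 2 only through its best probe, which stood at 4.72, 5.57, 4.34 and 4.22 in WT and at 4.18, 4.29, 4.26 and 4.63 in KO. Another of its 3 probes was detected in KO replicate 2 only. Itpr1, an inositol trisphosphate receptor, was detected in WT replicate 3 only, and stood at 4.35, 4.15, 5.71 and 4.22 in WT and at 4.44, 4.22, 4.75 and 4.33 in KO. The probes of Kcna5 and Kcnq5, voltage-gated potassium channels, of Ryr3, a ryanodine receptor, and of Pln, the inhibitor of the store calcium ATPase, were detected on 0 arrays. The best probes of Ryr2, the ryanodine receptor best known from heart, of Trpm7, a channel with a kinase domain, and of Cacna1d, an L-type calcium channel, were detected on 2 arrays each. For Trpm7 both were WT arrays, with values of 4.69, 4.36, 4.91 and 4.28 in WT and 4.23, 4.38, 4.36 and 4.66 in KO. Those of Trpm4, a cation channel opened by calcium, Kcnj2, an inward rectifier, Ano1, a calcium-activated chloride channel, and Clca1, a secreted protein linked to chloride conductance, were detected on 3 arrays each. A probe that is not detected may also be a poor probe, so the low signal is a statement about these probes on these arrays.

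24 of the 38 genes passed the filter of detection on at least 4 of 8 arrays and were tested among 11859 genes. KO against WT, 0 of the 24 passed a limma adjusted p of 0.05, as did 0 of all genes (0%). The lowest adjusted p of the 24 was 0.83. 1 of the 24, Atp2b4, had an unadjusted p under 0.05, against 5.74% of all genes, of which 2.61% were higher and 3.13% lower in KO. For 1 of the 24, again Atp2b4, the groups did not overlap, against 3.28% of all genes, of which 1.61% were higher and 1.67% lower. By sign 18 of the 24 were higher in KO and 6 lower, against 49.7% and 50.3% of all genes, with a median log2 difference of 0.15 against -0.0024 over all genes. Within slide 1, and with slide as a block, which gives the same estimate since slide 2 held KO arrays only, 13 of the 24 were higher by sign, against 46.0% of all genes, and the median was 0.04. Of the contractile genes 14 of 14 tested were higher in KO by sign, with a median of 0.42, 3 with an unadjusted p under 0.05 and 0 past adjustment, and their part in the count of 18 was not tested. None of the 24 differed by 2-fold between group means, and their SD among cultures had a median of 0.33 in WT and 0.35 in KO, close to the 0.31 and 0.33 of all genes.

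**Figure D2:**
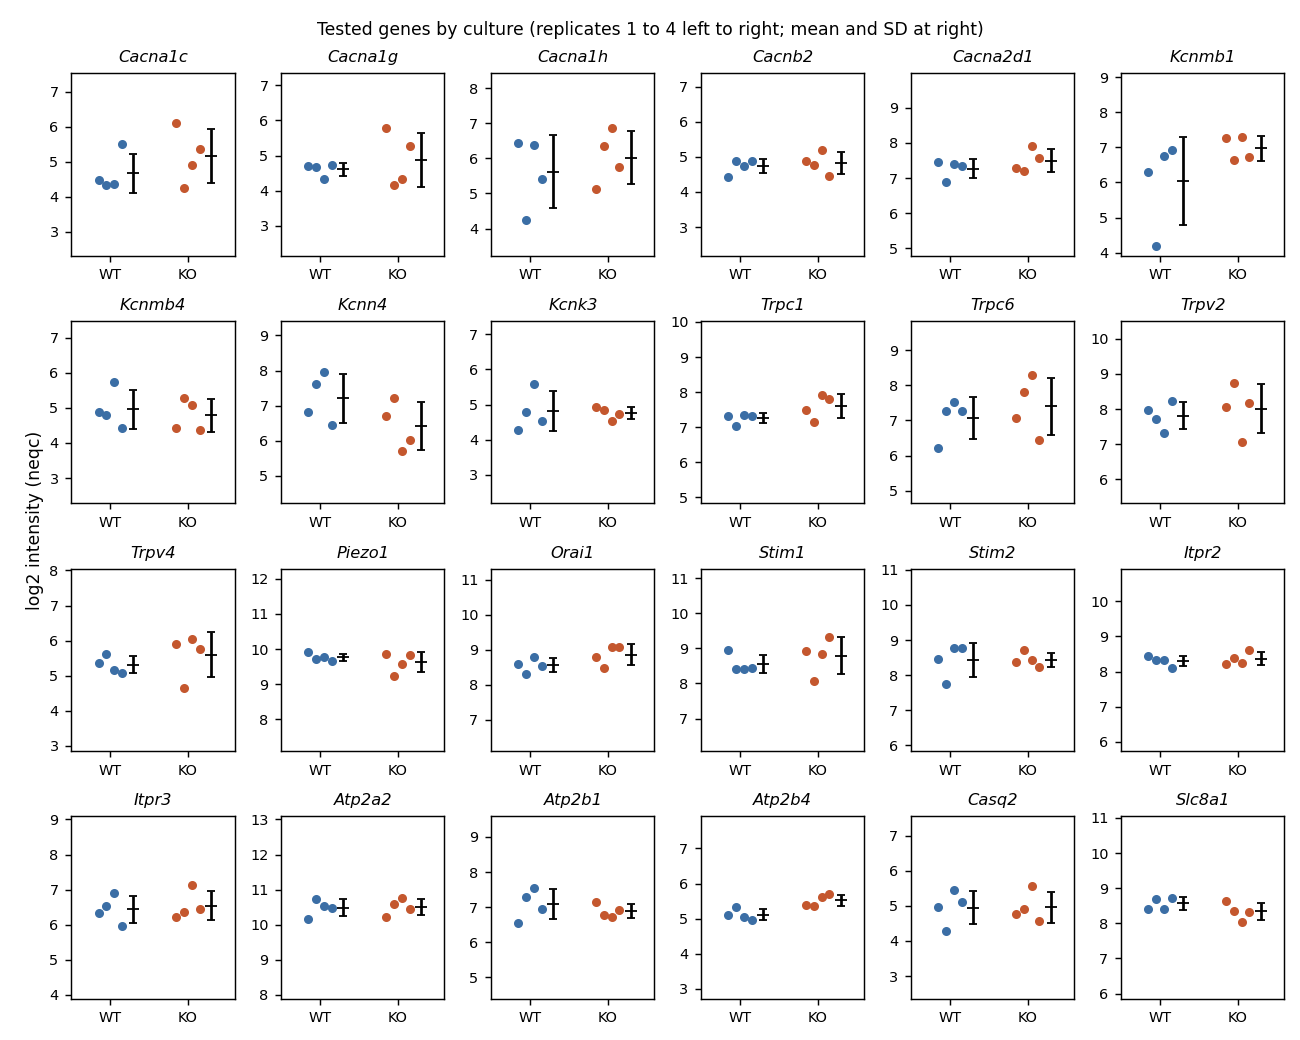
log2 intensity of the 24 tested genes in each culture (points, replicates 1 to 4 from left to right, WT blue and KO orange), with the mean and SD of each group (bars, n = 4). All panels span the same number of log2 units around the gene's mean, so widths can be compared. The groups overlap in every panel but that of Atp2b4.

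**Figure D3:**
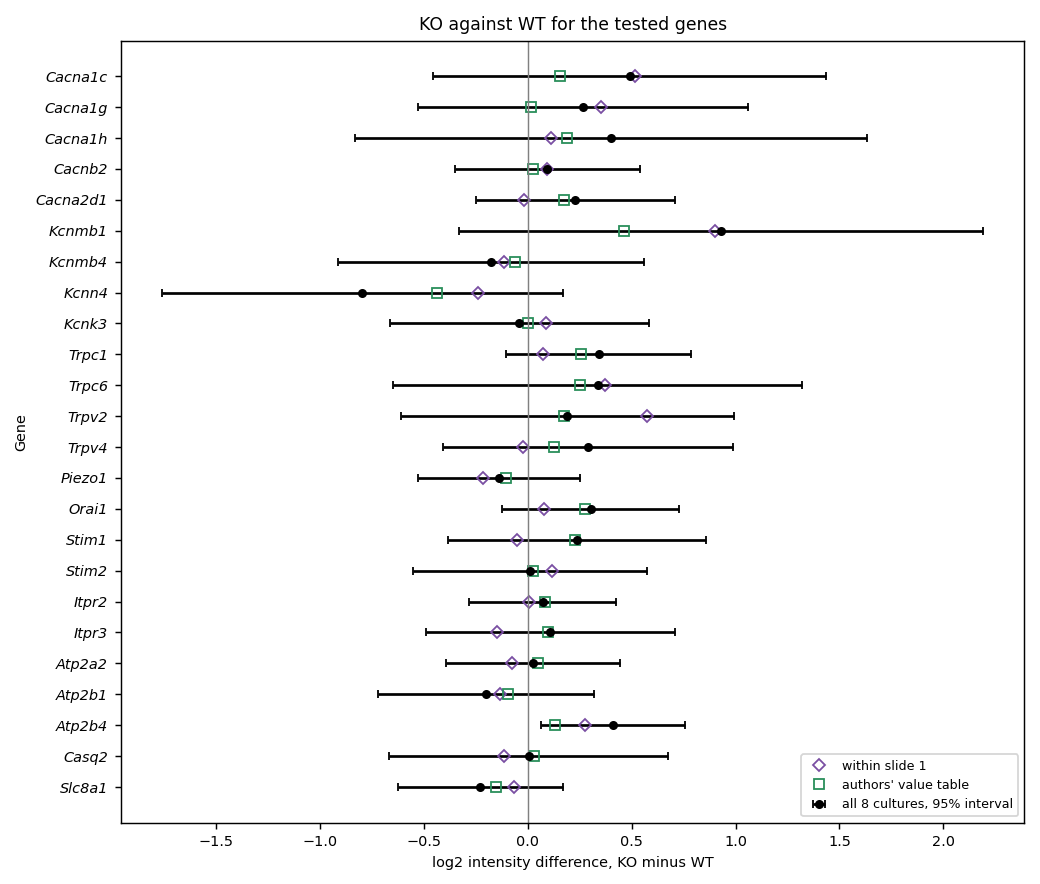
log2 intensity difference, KO minus WT, of the 24 tested genes with the 95% interval of the limma fit (black), within slide 1 (diamonds) and in the authors' value table (squares). The interval of Atp2b4 alone leaves out 0, and the widest are those of Kcnmb1, Cacna1h and Trpc6.

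No pore-forming subunit of the voltage-gated calcium channels was detected on all 8 arrays. Cacna1c, the pore of the L-type channel through which arterial smooth muscle takes up most of its calcium, stood at 4.49, 4.35, 4.36 and 5.51 in WT replicates 1 to 4 and at 6.12, 4.26, 4.91 and 5.37 in KO replicates 1 to 4. WT replicate 4 and KO replicates 1, 3 and 4 were the arrays with detection, and the groups overlapped. Cacna1c differed by 0.49 on the log2 scale, with a 95% interval of -0.46 to 1.44 and a limma adjusted p of 0.84. Leaving out KO replicate 1 gave 0.17 and leaving out KO replicate 2 gave 0.79, while it was 0.15 in the authors' value table. None of the other 5 probes of Cacna1c was detected on more than 3 arrays. They differed in both directions, by -0.21, 0.18, 0.39, -0.33 and -0.17. The T-type channel genes Cacna1g and Cacna1h, which open at lower voltage, had log2 differences of 0.27 and 0.40 with standard errors of 0.35 and 0.54. A second probe of Cacna1g, with 2 detected WT arrays and no detected KO array, gave the opposite direction, with 4.59, 6.34, 6.09 and 4.51 in WT and 4.23 to 4.33 in KO. On the log2 scale of the authors' value table its difference was -0.41, against 0.02 for the tested probe. In the fit without a detection filter, where the second probe stood for Cacna1g, the unadjusted limma p was 0.033 and the adjusted p 0.86. The lowest Cacna1h value was 4.25, in WT replicate 2, the others spanning 5.12 to 6.86, and without WT replicate 2 its difference was -0.06. Cacna1d was not tested. Its best probe was detected in KO replicates 1 and 2 only, and stood at 4.26, 4.23, 4.38 and 4.21 in WT and at 5.53, 7.56, 4.39 and 4.17 in KO. KO replicates 3 and 4 lay near the WT values, the difference in the authors' value table was 0.47 on the log2 scale, and the other 2 probes were detected on 0 arrays.

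Of the auxiliary subunits, which set how much of the pore reaches the membrane, Cacna2d1 was bright on all arrays. It stood at 7.44, 6.88, 7.41 and 7.36 in WT and at 7.29, 7.21, 7.92 and 7.58 in KO. WT replicate 2 was lowest and KO replicates 3 and 4 were highest. The log2 difference was 0.23 with a 95% interval of -0.25 to 0.71, and -0.02 within slide 1, and leaving out WT replicate 2 or KO replicate 3 gave 0.10 or 0.09. Its other 2 kept probes gave 0.34 and -0.17. Cacnb2 differed by 0.09, with a second probe at -0.32, both dim.

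The calcium-activated potassium channels held the widest differences in either direction. Kcnmb1, the beta subunit that raises the calcium sensitivity of the large-conductance channel in smooth muscle, stood at 6.31, 4.20, 6.75 and 6.92 in WT and at 7.26, 6.63, 7.30 and 6.71 in KO. WT replicate 2 was undetected and far below the other 7 cultures, whose WT and KO values overlapped. Kcnmb1 differed by 0.93 on the log2 scale, with a 95% interval of -0.33 to 2.19 and a limma adjusted p of 0.83, and the exact permutation test over 70 assignments gave p = 0.17, two-sided. Without WT replicate 2 it was 0.32, and it was 0.46 in the authors' value table. The list of contractile genes was also lowest in WT replicate 2: its mean deviation from the average of the 8 cultures was -0.13, -0.97, -0.31 and 0.38 in WT and 0.30, 0.26, 0.21 and 0.26 in KO. In WT replicate 3 the list lay below its average and Kcnmb1 above. The part of the contractile genes in the Kcnmb1 difference was not tested.

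Kcnn4, the intermediate-conductance channel known from dividing smooth muscle cells and from leukocytes, lay the other way. It stood at 6.82, 7.62, 7.97 and 6.45 in WT and at 6.72, 7.23, 5.71 and 6.02 in KO. The lowest values were those of KO replicates 3 and 4, on slide 2, while KO replicates 1 and 2 lay within the WT range. The log2 difference was -0.80, 1.74-fold lower in KO, with a 95% interval of -1.76 to 0.17, a limma adjusted p of 0.83 and an exact permutation p of 0.14, two-sided. Within slide 1 it was -0.24, in the authors' value table -0.44 and without KO replicate 3 or KO replicate 4 it was -0.56 or -0.66. Macrophage and leukocyte markers had mean deviations of 1.52, 2.11, -1.57 and -0.16 in WT and 0.97, 0.54, -2.31 and -1.12 in KO, and were lower in KO by sign in 14 of 14 genes. They were lowest in KO replicate 3, as Kcnn4 was, but WT replicate 3, highest for Kcnn4, was their second lowest culture, and their part in the difference was not tested. Kcnmb4, a beta subunit best known from brain, differed by -0.18 with a standard error of 0.32 through a probe detected on 2 arrays of each group.

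**Figure D4:**
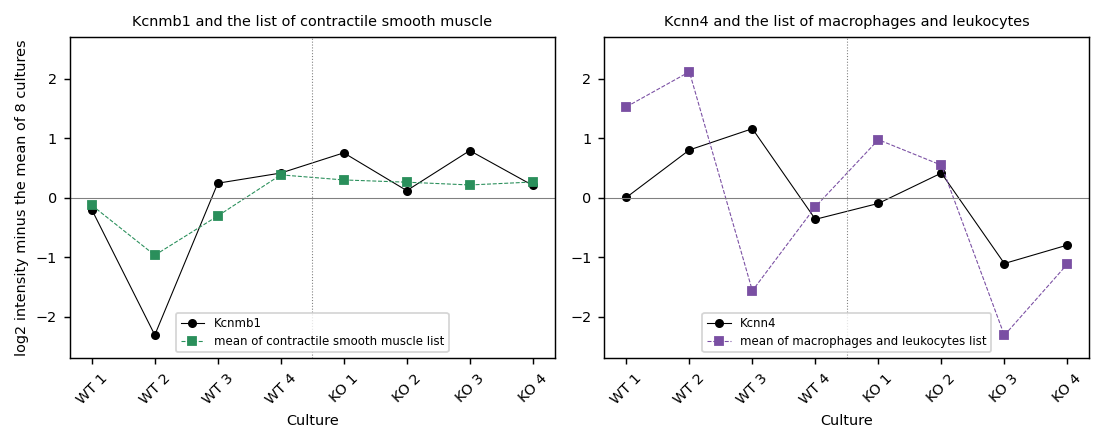
Deviation of log2 intensity from the mean of the 8 cultures for Kcnmb1 beside the mean of the contractile smooth muscle list (left) and for Kcnn4 beside the mean of the macrophage and leukocyte list (right). Each point is 1 culture and the dotted line parts WT from KO. Kcnmb1 and the contractile list are both lowest in WT replicate 2, and in WT replicate 3 the gene and the list lie on opposite sides of 0 in both panels.

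Of the other potassium channels, Kcnk3, a background channel, was the 1 gene tested of 4. It stood at 4.29, 4.80, 5.60 and 4.53 in WT and at 4.93, 4.85, 4.54 and 4.73 in KO, near background, and differed by -0.04 with a 95% interval of -0.66 to 0.58. Kcnj2 had no detected WT array and 3 detected KO arrays. Its values were 4.21, 4.52, 4.73 and 4.32 in WT and 4.53, 5.12, 5.09 and 4.83 in KO, a difference of 0.17 on the log2 scale of the authors' value table. None of these arrays exceeded the 95th percentile of the control-like probes. In the fit without a detection filter its unadjusted p was 0.034 and its limma adjusted p 0.86.

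Among the TRP and Piezo channels, Trpc1, a subunit of receptor- and store-operated channels, had the lowest p. It stood at 7.33, 7.05, 7.35 and 7.31 in WT and at 7.50, 7.16, 7.93 and 7.81 in KO. 3 of the 4 KO cultures lay above all WT cultures and KO replicate 2 lay below 3 of them. Trpc1 differed by 0.34, with a 95% interval of -0.10 to 0.79 and a limma adjusted p of 0.83. It was 0.07 within slide 1, and a second probe, detected on 5 arrays, gave 0.35. Trpc6, the receptor-operated channel opened by diacylglycerol, ranged from 6.20 to 7.53 in WT and from 6.46 to 8.29 in KO, and differed by 0.34 with a standard error of 0.43, and by 0.04 or 0.05 when KO replicate 3 or WT replicate 1 was left out. Trpv2, found in both smooth muscle and macrophages, ranged from 7.33 to 8.24 in WT and from 7.06 to 8.73 in KO. Its lowest culture of each group was replicate 3, which was also the lowest of each group for the macrophage markers. The markers were highest in WT replicate 2, where Trpv2, at 7.72, lay below WT replicates 1 and 4, at 7.97 and 8.24. By sign the markers were lower in KO and Trpv2 was higher, and the part of the markers was not tested. The log2 difference of Trpv2 was 0.19 with a standard error of 0.35, and 0.57 within slide 1. Trpv4, a channel opened by osmotic and mechanical stimuli, differed by 0.29 and a second probe by -0.43.

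Piezo1, the stretch-gated channel of vascular cells, was tight on its bright probe, at 9.91, 9.72, 9.76 and 9.68 in WT and 9.85, 9.25, 9.58 and 9.82 in KO. The groups overlapped, and the log2 difference was -0.14 with a 95% interval of -0.53 to 0.25, and -0.014 without KO replicate 2, the lowest culture. Its second probe was dim, though detected on all 8 arrays, and stood at 4.67, 5.08, 4.88 and 4.91 in WT and at 5.55, 5.42, 5.47 and 6.10 in KO, with groups that did not overlap and a difference of 0.75, or 0.24 in the authors' value table. Here the probes of 1 gene disagreed in direction.

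**Figure D5:**
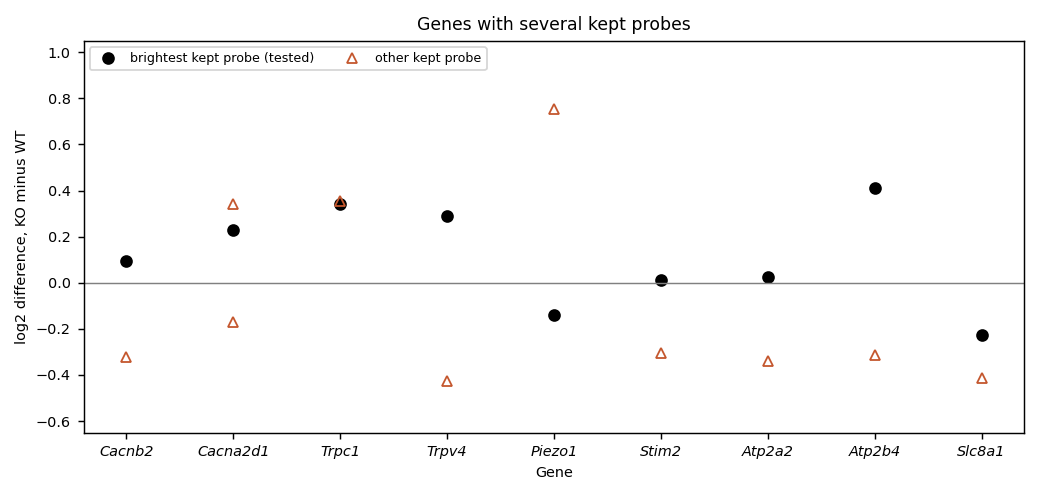
log2 difference, KO minus WT, of every kept probe of the 9 genes with several kept probes, with the tested (brightest) probe as a filled circle and the others as triangles. The probes of 7 genes lie on both sides of 0, and those of Trpc1 and Slc8a1 lie on one side.

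The genes of store-operated entry were detected throughout. Orai1, the pore of the channel that opens when the store is empty, stood at 8.60, 8.32, 8.80 and 8.53 in WT and at 8.79, 8.49, 9.09 and 9.09 in KO. KO replicates 3 and 4 were the highest and KO replicates 1 and 2 lay within the WT range. The log2 difference was 0.30 with a 95% interval of -0.13 to 0.73 and a limma adjusted p of 0.83, and 0.08 within slide 1. Stim1, the sensor of store calcium that gates Orai1, ranged from 8.42 to 8.95 in WT and from 8.07 to 9.33 in KO. Its difference was 0.24 with a standard error of 0.27, with a within-slide value of -0.05 and a value of 0.06 without KO replicate 4. Stim2, the second sensor, differed by 0.01 with a standard error of 0.25. Trpc1, Orai1 and Stim1 thus had their highest KO value on slide 2, where no WT array lay, and for that part of the difference slide and genotype cannot be told apart.

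The release channels of the store showed small differences. Itpr2 stood at 8.44, 8.33, 8.33 and 8.09 in WT and at 8.21, 8.39, 8.25 and 8.63 in KO, a log2 difference of 0.07 with a 95% interval of -0.28 to 0.42. The groups overlapped. A dim second probe of Itpr2, detected on 2 WT arrays and 0 KO arrays, differed by -0.39 on the log2 scale of the authors' value table. On that scale the tested probe differed by 0.08. Itpr3 differed by 0.11 with a standard error of 0.26.

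Among pumps, exchanger and store proteins, Atp2b4, a calcium ATPase of the plasma membrane, was the 1 gene whose groups did not overlap. It stood at 5.11, 5.33, 5.05 and 4.96 in WT (5.11 ± 0.16, SD, n = 4) and at 5.40, 5.37, 5.61 and 5.71 in KO (5.52 ± 0.16, SD, n = 4). The nearest values, 5.33 in WT replicate 2 and 5.37 in KO replicate 2, were close. The log2 difference was 0.41, 1.33-fold, with a 95% interval of 0.06 to 0.76, an unadjusted p of 0.026 and a limma adjusted p of 0.83. By the two-sided exact permutation test p was 0.0286, which is the smallest this design allows. The difference was 0.27 within slide 1, 0.13 in the authors' value table and 0.01 when background was set by the control-like probes. The last setting shrank the differences of other dim genes too, such as Cacna1c, at 0.017 against 0.49. A second kept probe of Atp2b4 gave -0.31, so the 2 probes disagreed. Atp2b1, the related pump found in most cells, was bright, ranged from 6.56 to 7.55 in WT and from 6.72 to 7.14 in KO, and differed by -0.20 with a standard error of 0.23. Leaving out WT replicate 1 or WT replicate 3 gave -0.38 or -0.05.

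Atp2a2, the calcium ATPase that refills the store, stood at 10.15, 10.74, 10.54 and 10.49 in WT and at 10.22, 10.59, 10.76 and 10.45 in KO. The ranges were nearly the same, and the log2 difference was 0.02 with a 95% interval of -0.40 to 0.44. A second bright probe ran from 9.94 to 10.61 in WT and from 9.69 to 10.07 in KO, a difference of -0.34. Slc8a1, the sodium-calcium exchanger, stood at 8.41, 8.70, 8.41 and 8.73 in WT and at 8.65, 8.35, 8.03 and 8.32 in KO. 3 of the 4 KO cultures lay below all WT cultures, and KO replicate 1 lay within their range. Its difference was -0.23 with a 95% interval of -0.63 to 0.17, and -0.07 within slide 1, and the second kept probe gave -0.42. Casq2, a calcium-binding protein of the store, was near background and differed by 0.003.

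The number of these genes with an unadjusted p under 0.05 depended on 4 cultures and also on the processing. Without KO replicate 2 it was 5 (Atp2b4, Kcnn4, Orai1, Trpc1 and Trpv4) in place of 1, while over all genes the number was 996 in place of 681. Without KO replicate 3, KO replicate 4 or WT replicate 3 it was 0, and over all genes 522, 464 and 540. None of the 5 passed after adjustment, with a lowest adjusted p of 0.56. Without KO replicate 2 the differences of Kcnn4, Orai1, Trpc1 and Trpv4 were -1.07, 0.43, 0.49 and 0.60.

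Of 165 further genes of the pathway in 6 lists, 88 were tested and 0 passed the adjusted threshold in either direction, as for all genes (0%). Some listed genes had no probe. In the order of the lists below, 11, 35, 17, 33, 22 and 29 genes had one. Among 3 tested calcium channel subunits of 12, Cacnb4, a beta subunit, stood at 5.23, 5.73, 5.99 and 5.71 in WT and at 6.32, 6.56, 6.22 and 6.27 in KO. Its groups did not overlap, and the log2 difference was 0.68 with a standard error of 0.19, an unadjusted p of 0.006 and a limma adjusted p of 0.83. It was 0.29 in the authors' value table and 0.037 when background was set by the control-like probes. Cacna1a and Cacna2d3 differed by 0.05 and -0.65. Of 18 tested potassium channel genes of 39, 8 were higher and 10 lower by sign. Those with the lowest p were Kcnab1 (0.44) and Kcnj12 (0.48) on the higher side and Kcnq3 (-0.61) and Kcnn3 (-0.96) on the lower side. Of 9 tested TRP and mechanosensitive channels of 20, 4 were higher and 5 lower, led by Tmem63b (0.39) and Tpcn2 (0.20) and by Tpcn1 (-0.42) and Trpc2 (-0.26).

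Of 21 tested store, pump and exchanger genes of 36, 12 were higher and 9 lower. Calr, calreticulin, the calcium-binding chaperone of the endoplasmic reticulum, stood at 10.50, 10.18, 10.54 and 10.44 in WT and at 10.57, 10.84, 10.81 and 10.95 in KO. Its groups did not overlap, and the difference was 0.38 with a standard error of 0.15 and a limma adjusted p of 0.83. Fkbp1a, which binds release channels, differed by 0.23. Atp2a3, a store ATPase found in blood cells, differed by -0.94 and stood at 8.43 in WT replicate 2, against 4.94 to 6.06 in the others. Macrophage markers were highest in WT replicate 2, with a mean deviation of 2.11. In WT replicate 1 they were next highest, at 1.52, and Atp2a3 stood at 5.97. Their part in the difference was not tested. Without WT replicate 2 Atp2a3 differed by -0.30. Slc24a3, an exchanger, differed by -0.68.

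Of 21 tested calmodulin and calcium effector genes of 23, 15 were higher and 6 lower. Mylk, the calcium-calmodulin-dependent kinase of the myosin light chain and also a member of the contractile list, differed by 0.67 with a standard error of 0.29 and an unadjusted p of 0.045, Camk2g by 0.41, Camkk2 by -0.27 and Nfatc4 by -0.38. The groups of Camkk2 did not overlap, with 7.22 to 7.55 in WT and 7.02 to 7.18 in KO. Of 16 tested chloride and sodium channel and transporter genes of 35, 9 were higher and 7 lower, with Ano10 at 0.32, Atp1b3 at 0.18, Clic1 at -0.24 and Lrrc8a at -0.33. The median log2 difference of the 6 lists lay between -0.07 and 0.10. Groups that did not overlap were found for 1 gene each of the calcium channel, store and effector lists. The other lists had 0, against 3.28% of all genes. An unadjusted limma p under 0.05 likewise held for 1 gene each of the same lists and 0 of the others, against 5.74% of all genes. By sign 49.7% of all genes were higher in KO.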

How the data were processed

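Per the file headers, the deposited scanner table gives each probe's mean bead intensity, bead SD, bead count and detection p-value on each array, not normalized. The deposited value table holds the same arrays' intensity after processing by the authors, on a linear scale, with a method that no label or header states. The probe identifiers deposited in the scanner table do not go with its values (Spearman correlation with the value table -0.0083 to -0.0047 per array). Rows were matched by their 8 ranks, which paired 46237 of 46237 rows, and the value table's identifiers were used. Genes were named through the platform annotation, with symbols updated through RefSeq assembly GRCm38.p6. Of 46237 probes, 35784 had 1 gene, 0 several and 10453 none listed. Both Clca1 probes carry the current symbol Clca1, 1 of them under the older symbol Clca3.

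neqc of limma 3.58.1 (R 4.3.3) corrected background from the detection p-values with an offset of 16, applied quantile normalization and took log2. The deposited p-values compare each bead mean with 1 background level per array, so the background spread, and with it the size of differences of dim genes, is uncertain. A probe was kept if 4 or more of the 8 arrays had a detection p-value under 0.05, and each gene was represented by its brightest kept probe over the 8 arrays. lmFit and eBayes were fitted to 11859 genes, two-sided, with Benjamini-Hochberg adjustment. The fit and the matching were tested on simulated data. Median scanner intensity was 94.7 to 128.1 per array, from a median of 38 to 40 beads a probe, and precision is limited by the number of arrays. The genes and lists were chosen with earlier results of these data known. Values on every array are given for those of the 38 genes with an unadjusted p under 0.05, with groups that do not overlap, with the lowest p of their role or with a best probe detected in 1 group only. From each further list the 2 genes with the lowest p in each direction are named. Kcnmb1, Piezo1, Atp2a2, Slc8a1, Atp2a3, Cacnb4, Calr and Camkk2 are given in more detail than this rule asks, chosen after their values were seen. Alternatives covered background, normalization, filter, probe choice, slide, replicate number, array weights and each culture left out.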

Additional observations from a re-analysis of the deposited data

Results flagged for a closer look

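In 4 of the 48 groups of 4 cultures checked over the tested calcium handling and channel genes, 1 culture stood far from the other 3 by Dixon's test, and chance flags about 1 in 20 groups. Cacna1c, the L-type pore, was 5.51 in WT replicate 4, where the next value was 4.49. Cacna2d1, an auxiliary subunit, was 6.88 in WT replicate 2 with the next at 7.36, and Trpc1, a cation channel, was 7.05 in the same culture with the next at 7.31. Stim1, the store calcium sensor, was 8.95 in WT replicate 1 with the next at 8.44. Kcnmb1 in WT replicate 2, at 4.20, did not exceed the critical value because the other 3 cultures were themselves spread.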

How the results depend on the processing

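Under each of the 21 alternatives, 0 of the tested genes of calcium handling and transport, and 0 of all genes, passed the adjusted threshold. The number of these genes that could be tested was 15 with detection on all 8 arrays, 37 without a detection filter and 17 above the control-like probes on 4 of 8 arrays, the last an alternative chosen after seeing the data, against 24. Their median log2 difference was 0.014 when background was set by the control-like probes, against 0.15. That setting shrank single differences too, with Kcnmb1 at 0.064 against 0.93 and Kcnn4 at -0.089 against -0.80. By sign 17 of 24 were still higher in KO, against 50.2% of all genes. Without a detection filter 1117 of 20289 genes had an unadjusted limma p under 0.05, against 681 of 11859 with it. 9 genes kept their sign under all alternatives run on them (Atp2b1, Atp2b4, Cacna1c, Kcnmb1, Kcnn4, Orai1, Slc8a1, Trpc1 and Trpc6), and the other 15 changed sign in at least 1. Both with the slide block and in slide 1 alone, the sign turned for Atp2a2 (-0.077), Cacna2d1 (-0.018), Casq2 (-0.12), Itpr3 (-0.15), Kcnk3 (0.086), Stim1 (-0.053), Trpv4 (-0.025), Clic1 (0.021) and Tpcn2 (-0.10). With the mean of probes it turned for Atp2a2 (-0.16), Cacna1a (-0.11), Cacnb2 (-0.12), Piezo1 (0.31), Stim2 (-0.15) and Trpv4 (-0.068), and without a detection filter, where another probe stood for the gene, for Cacna1g (-1.09). With array weights it turned for Cacna1a (-0.0010), Casq2 (-0.22) and Stim2 (-0.21), without background correction for Cacna1a (-0.086), Kcnk3 (0.0042) and Stim2 (-0.00061), with normexp for Cacna1a (-0.11) and Kcnk3 (0.010), with control-like probes for Cacna1a (-0.0092) and Stim2 (-0.014), and in the authors' value table for Cacna1a (-0.093) and Kcnk3 (1.4e-05). When 1 culture was left out, the range crossed 0 for Atp2a2 (-0.087 to 0.12), Cacna1a (-0.18 to 0.25), Cacna1g (-0.033 to 0.51), Cacna1h (-0.057 to 0.70), Cacnb2 (-0.032 to 0.22), Casq2 (-0.22 to 0.17), Itpr2 (-0.014 to 0.12), Itpr3 (-0.092 to 0.26), Kcnk3 (-0.21 to 0.22), Kcnmb4 (-0.35 to 0.082), Stim2 (-0.22 to 0.12) and Trpv2 (-0.052 to 0.51). The cause was not tested. With the replicate number as a block, 0 of these genes passed, 0 had an unadjusted p under 0.05 and 1005 of all genes did. Cultures of the same number had deviations correlated at 0.32, 0.21, 0.29 and 0.063, and 8 of 8 correlated best with their own number, which is a hint from the data and not from the labels. Genes near background (Cacna1c, Cacna1g, Cacnb2, Kcnmb4, Kcnk3, Atp2b4 and Casq2) are limited by signal over background.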
